A study of Mus musculus with 3 samples.

Results

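Endothelial cells of a library sorted for a pacemaker channel reporter were split by whether the reporter's transcript was read in them. Endothelial barcodes were those with at least 500 genes, at least 4 unique molecular identifiers (UMIs, each standing for 1 captured transcript) of the junction genes Pecam1 and Cdh5 together, and under 2% of UMIs from the sarcomere genes Tnnt2, Myh6, Actc1, Tnni3 and Myl7. Of the 2492 such cells in the GFP-positive library, 384 held at least 2 UMIs of the added feature GFP and are called GFP-read, and 1527 held 0 and are called GFP-unread. The groups were thus chosen by the GFP count itself, so a difference in GFP between them is not a result. The other 581 held 1 GFP UMI and were placed in neither group. The series has 8072 barcodes in all.

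The mice were of the ICR strain, carried the genotype HCN4H2BGFP and were sampled at postnatal day 2, and all 3 libraries share this background. The GFP-positive and GFP-negative libraries hold cells from the sinoatrial node region, sorted for or against HCN4-GFP. The last library, RA, was unsorted, and its title and its tissue label, also sinoatrial node region, disagree. Each sample is 1 library made with a 10x Genomics kit, and the number of animals behind it is not given in the labels.

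HCN4 is the main ion channel of the pacemaker current in the sinoatrial node, the tissue that sets the heart rate. The reporter is a histone fused to green fluorescent protein, which collects in the nucleus of cells that use the Hcn4 gene. Endothelial cells line all vessels and the heart chambers. Those of arteries use SOX17, Notch signals and the gap junction protein Connexin 40. Those of capillaries use GPIHBP1 and CD36 in obtaining fatty acids. The endocardium, which lines the chambers, makes the natriuretic peptide receptor NPR3.

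Promoters of 3 genes the results turn on are shown: Hcn4, whose locus carries the reporter, Gja5, which encodes Connexin 40, and Gkn3, the gene with the highest ratio among those named. Each runs from 250 bases before to 50 bases after the gene's start, 5′ to 3′ on the gene's strand, from RefSeq on build GRCm38.p6, which is not the build mm9 of the deposited counts. The windows are chr9:58822699-58822998 on the plus strand for Hcn4, chr3:97032152-97032451 on the plus strand for Gja5 and chr6:87388886-87389185 on the minus strand for Gkn3. Capitals mark matches, on either strand, to the GC box GGGCGG in Hcn4 and Gja5 and to the GATA motif AGATAA in Gkn3.
Hcn4: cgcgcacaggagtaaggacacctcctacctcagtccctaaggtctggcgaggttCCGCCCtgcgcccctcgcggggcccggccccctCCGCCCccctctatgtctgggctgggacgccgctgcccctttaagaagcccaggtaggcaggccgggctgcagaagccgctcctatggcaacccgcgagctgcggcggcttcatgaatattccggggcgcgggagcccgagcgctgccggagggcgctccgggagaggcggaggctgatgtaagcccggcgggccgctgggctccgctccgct
Gja5: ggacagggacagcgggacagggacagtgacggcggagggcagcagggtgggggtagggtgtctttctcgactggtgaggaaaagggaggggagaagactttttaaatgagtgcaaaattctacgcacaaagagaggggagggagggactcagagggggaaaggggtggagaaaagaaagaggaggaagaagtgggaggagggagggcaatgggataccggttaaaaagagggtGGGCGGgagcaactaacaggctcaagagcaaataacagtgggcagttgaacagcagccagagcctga
Gkn3: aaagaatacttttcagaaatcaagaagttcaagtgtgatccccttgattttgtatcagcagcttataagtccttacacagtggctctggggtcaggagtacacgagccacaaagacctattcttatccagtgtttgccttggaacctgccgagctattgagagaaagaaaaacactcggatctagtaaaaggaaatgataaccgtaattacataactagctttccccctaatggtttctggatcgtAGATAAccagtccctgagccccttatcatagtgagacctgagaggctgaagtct
The GC box occurred 2 times in the Hcn4 window, 1 time in that of Gja5 and 0 times in that of Gkn3, and 35.7% of 32851 promoters of the same length held it. AGATAA occurred in the Gkn3 window and in 11.2% of all promoters. The SOX motif AACAAT, the RBPJ motif TGGGAA and the TATA box TATAAA were searched on both strands and none matched any of the 3 windows, while 10.7%, 25.6% and 13.6% of all promoters held them. These matches describe letters in the windows and were not tested against the counts.

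The GFP-positive library held 3346 barcodes and 50416748 UMIs, and 75.5% of its barcodes with at least 500 genes passed the endothelial gate, against 6.23% in the GFP-negative library and 19.4% in RA. Of its endothelial cells, 21 had a barcode that also occurs in another library, 3 of them GFP-read and 12 GFP-unread. Doublets were left in, since no caller was run. With 1 library, cells are not replicates, so no test was made. All intervals are exact, at 95%, and cover counting error only.

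Endothelial cells of the sorted library carried the reporter transcript above the level of endothelial cells in the other libraries, and below that of cardiomyocytes. Levels are in CPM, the UMIs of a gene scaled to the total UMIs of its group. GFP stood at 42.8 CPM (40.7 to 45.0) in the 2492 endothelial cells, from 1587 UMIs. It stood at 134 CPM (121 to 148) in 153 cardiomyocytes, at 16.1 CPM (13.5 to 19.1) in 497 mesothelial cells and at 14.2 CPM (4.62 to 33.2) in 35 fibroblasts, each gated by marker UMIs in the same library. Endothelial cells of the GFP-negative library had 3.47 CPM (1.5 to 6.84), and those of RA had 0.901 CPM (0.186 to 2.63). The intervals of the sorted library's endothelial cells and of the other libraries' endothelial cells do not overlap. The GFP-positive library was sorted for the reporter's protein, so a higher level there was set up by the sort and is not a separate result.

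Shares of cells with a GFP UMI kept the same order once depth was made equal. Each cell was thinned to 5000 UMIs, which left out 42 of the endothelial cells, 38 of them GFP-unread. At least 1 GFP UMI then remained in 18.7% (17.1 to 20.3) of endothelial cells, in 42.5% (34.5 to 50.7) of cardiomyocytes and in 8.04% (5.78 to 10.8) of mesothelial cells. The share was 2.81% (0.918 to 6.43) in the endothelial cells of the GFP-negative library, and 0 of 240 such cells of RA had one, for which the interval reaches 1.53%. Without thinning it was 38.7% in the sorted endothelial cells at a median of 11882 UMIs, and 23.3% in the mesothelial cells at a median of 13943 UMIs. All these sorted cells had passed the GFP gate, so a count of 0 does not show that a cell lacked the reporter.

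**Figure D1:**
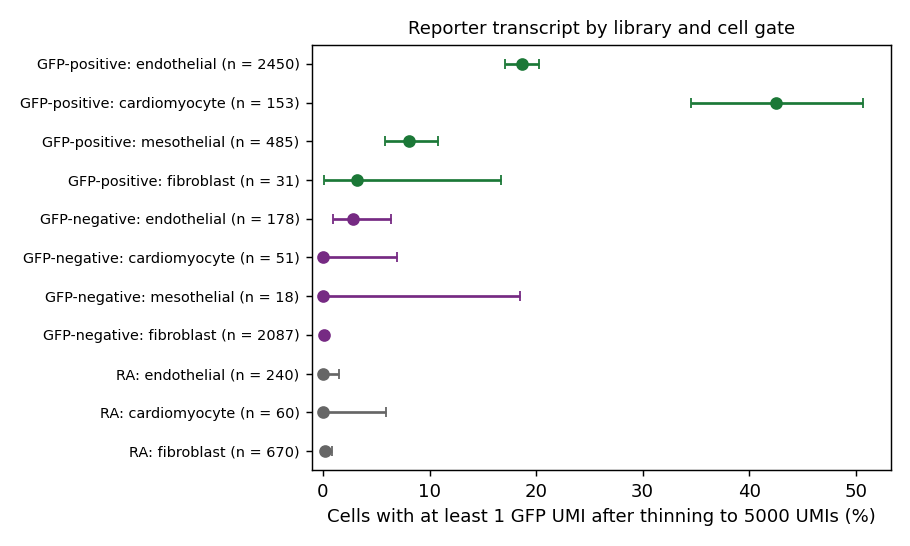
Share of cells with at least 1 GFP UMI after thinning each cell to 5000 UMIs (x axis, %), by library and marker gate (y axis, with the number of cells). Points are shares and bars are exact 95% binomial intervals. The sorted library's endothelial cells, at 18.7%, lie between its mesothelial cells, at 8.04%, and its cardiomyocytes, at 42.5%.

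The split by GFP count followed depth closely. The median was 10528 UMIs in cells with 0 GFP UMIs, 12799 in those with 1 and 17265 in the 234 cells with 2, the count just inside the threshold. The highest count was 7, in 1 cell. Equal numbers of both groups were therefore drawn from bins of 0.1 in log2 total UMIs, which kept 357 GFP-read and 357 GFP-unread cells. Their medians were 18124 and 18053 UMIs, 4263 and 4247 genes, and 2.84% and 2.96% mitochondrial UMIs. Sarcomere genes made up 0.0375% and 0.0406% of the summed UMIs.

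Hcn4 itself did not separate the groups at this depth. GFP-read cells held 10 Hcn4 UMIs in 9 cells, and GFP-unread cells held 12 in 12 cells, a log2 ratio of -0.25 (-1.63 to 1.07). The interval spans 0 and reaches past a 2-fold difference in both directions. Over all 2492 endothelial cells there were 64 Hcn4 UMIs, or 1.73 CPM (1.33 to 2.20), against 8.41 CPM (5.44 to 12.4) in the cardiomyocytes. The endothelial cells of the GFP-negative and RA libraries had 0. The limit of 3 UMIs that a count of 0 allows is 1.30 and 0.901 CPM, and the exact intervals reach 1.60 and 1.11 CPM. Seen from the other side, 57 endothelial cells held an Hcn4 UMI, and 19.3% (10.0 to 31.9) of them were GFP-read. Among as many cells without an Hcn4 UMI, drawn to the same depth, 21.1% (11.4 to 33.9) were GFP-read. The other added features were hcn4-h2bG-3, with 6 UMIs in all endothelial cells, and hcn4-h2bG-10, with 0.

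Hcn2 and Hcn3, which encode related channels, were as sparse. Hcn2 had 6 UMIs in GFP-read and 1 in GFP-unread cells, and Hcn3 had none in either group. Of 16 pacemaker genes, 6 had enough UMIs to measure. Gjc1, which encodes the gap junction protein Connexin 45, had the highest ratio of them, at 41.4 CPM in GFP-read and 25.9 CPM in GFP-unread cells. With another draw of cells its log2 ratio was 0.46, within the fold. Tbx3, a transcription factor of the conduction system, had 21 UMIs in GFP-read and 33 in GFP-unread cells, and its log2 interval of -1.52 to 0.18 spans 0.

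Most genes differed by less than 1.5-fold between the groups. A gene was measured where both groups together had at least 50 UMIs, and a ratio was counted as past the fold at 1.5-fold or more, with 0.5 UMIs added to each sum. Of 10608 measured genes, 285 (2.69%) were higher and 473 (4.46%) lower in GFP-read cells, 758 (7.15%) in all. At a ratio of 5 to 4 in place of 3 to 2, 881 (8.31%) were higher and 1435 (13.5%) lower, 2316 (21.8%) in all. The median log2 ratio over all of them was -0.04. These shares are the background against which the lists below are read.

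Genes of arteries were higher in GFP-read cells. Of 18 arterial genes, 7 were past 1.5-fold higher and none was past it lower, with a median log2 ratio of 0.40. Gja5 stood at 144 CPM (135 to 153) in GFP-read and 63.8 CPM (58.1 to 70.0) in GFP-unread cells. The Notch target gene Hey2, a transcription factor of arterial identity, stood at 19.1 and 9.22 CPM, and the arterial transcription factor Sox17 at 118 and 76.4 CPM. Fbln5, which encodes an elastic fibre protein, stood at 1468 and 843 CPM. The other genes of the list past the fold were Gkn3, Stmn2 and Sema3g, at log2 ratios of 1.76, 0.83 and 0.61. Several arterial genes showed no such difference: the Notch ligand gene Dll4 stood at 19.1 CPM in both groups, the ephrin gene Efnb2 at 92.6 and 98.0 CPM, and the Notch target gene Hey1 at 31.5 and 37.4 CPM.

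The 12 genes with the highest ratios, among those at 50 CPM or more, were led by Gkn3, a gene of arterial endothelium, at 197 CPM (187 to 208) in GFP-read and 58.3 CPM (52.8 to 64.2) in GFP-unread cells. Eln, which encodes the elastin of elastic fibres, was the most abundant of them, at 19811 CPM against 9528 CPM. The median cell held 237 Eln UMIs in the GFP-read and 58 in the GFP-unread group. Eln also stood at 1043 CPM in a cluster of 8 cells led by airway genes, and how much of it was free RNA in the droplets was not tested. Cytl1, a gene for a small secreted protein that was also on the endocardial list, stood at 931 and 412 CPM. The Wnt inhibitor genes Sfrp1 and Dkk2 stood at 366 against 161 CPM and at 83.9 against 41.7 CPM. The rest were enzymes and secreted or membrane proteins. They were Nt5e, which makes adenosine, Ace, the angiotensin-converting enzyme, Sod3, the extracellular superoxide dismutase, Nppc, the precursor of C-type natriuretic peptide, the potassium channel gene Kcnn4 and the protease inhibitor gene Serpina1b. Their log2 ratios ran from 0.95 for Kcnn4 to 1.20 for Nt5e. Serpina1b has near-identical gene copies, so its count is uncertain, and for Nppc 10 cells held 64.2% of the GFP-read and 79.8% of the GFP-unread UMIs.

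Venous genes had a median above that of all genes, and capillary genes a median below it, although the summed capillary level was higher in GFP-read cells. Of 13 venous genes, 3 were past 1.5-fold higher and none lower, with a median log2 ratio of 0.37. They were Ackr1, a chemokine receptor of venules, at 11.9 and 5.11 CPM, the adhesion gene Selp at 49.5 and 24.8 CPM, and the proteoglycan gene Bgn at 1998 and 1157 CPM. Nr2f2, the transcription factor of venous identity, stood lower in GFP-read cells, at 117 against 154 CPM. Of 11 capillary genes none was past the fold higher and 5 were lower, with a median of -0.50. They were Gpihbp1, at 96.1 and 159 CPM, Rgcc, at 35.4 and 57.4 CPM, and the sparse genes Cd300lg, Btnl9 and Kcnj8. The fatty acid genes Fabp4 and Cd36 did not follow them, at log2 ratios of 0.37 and 0.18. The capillary list summed to 3782 CPM in GFP-read and 3149 CPM in GFP-unread cells, with Fabp4 giving 2636 and 2042 CPM, so its median and its sum differ in direction. With the matched cells drawn by another seed the capillary median was -0.06, and Ackr1, with 76 and 77 UMIs, and Btnl9, at a log2 ratio of -0.38, were no longer past the fold. Matched on cluster too, Ackr1 had a log2 ratio of -0.45.

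Endocardial genes were split. Of 11, Cytl1 was past the fold higher and 3 were lower: Npr3, at 71.0 (64.9 to 77.5) and 151 (142 to 160) CPM, Tmem108, at 94.3 and 155 CPM, and the transcription factor gene Gata4, at 37.4 and 58.7 CPM. Nfatc1, a transcription factor of endocardium and valves, stood at 61.7 and 61.1 CPM. Of 11 lymphatic genes, 2 were lower, Pdpn and Maf, and the lymphatic regulator Prox1 stood at 51.3 and 52.2 CPM. Genes shared by all endothelium gave a narrow spread, with none of 18 past the fold and a median log2 ratio of 0.13.

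Some genes of the signalling lists were past the fold, where 2.69% of all measured genes were higher and 4.46% lower. Of 13 Notch pathway genes, 2 were past the fold higher, Hey2, which is also on the arterial list, and the ligand gene Dll1, and none lower. Of 13 BMP pathway genes none was past the fold, and the BMP co-receptor gene Eng had the lowest ratio of them, at 502 and 668 CPM. Of 12 vascular growth factor and angiopoietin genes, 2 ligand genes were lower, Angpt2 and Pgf, of which Angpt2 was within the fold, at a log2 ratio of -0.49, with another draw of cells, while the receptor gene Kdr stood at 130 and 146 CPM. Of 13 genes of endothelial progenitors, Sox17 was past the fold higher, and Kit, a stem cell factor receptor gene, and Bst1 were lower. Of 16 cell cycle genes, 1 was higher and none lower.

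**Figure D2:**
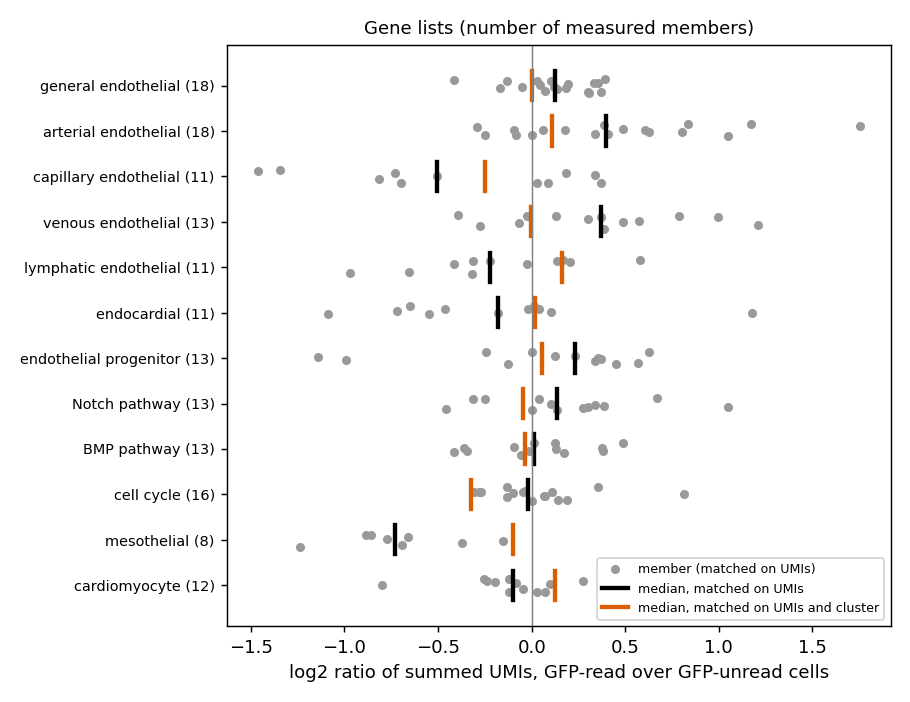
Log2 ratio of summed UMIs, GFP-read over GFP-unread cells (x axis), for the measured members of 12 gene lists (y axis, number of members in brackets). Grey points are members, black bars the list median in cells matched on total UMIs, and orange bars the median in cells matched on UMIs and cluster together. The arterial median of 0.40 falls to 0.11 and the venous median of 0.37 to -0.00 when clusters are also matched.

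The lowest ratios included genes of other cell types, and several of them rested on few cells. The 5 lowest were genes of airway secretory cells: Scgb3a1, Scgb3a2, Wfdc2, Scgb1a1 and Reg3g. Scgb3a2 stood at 270 CPM in GFP-read and 1604 CPM in GFP-unread cells. A single GFP-unread cell held 9359 of the 11311 Scgb3a2 UMIs (82.7%), while the median cell of both groups held 5. Scgb3a2 had a UMI in 98.0% and 99.4% of the cells and stood at 263 to 346 CPM in every endothelial cluster but the airway-led one. With another draw of cells Scgb3a2, Scgb3a1, Scgb1a1 and Reg3g had log2 ratios of -0.08, -0.02, 0.09 and 0.31, within the fold. The next were the chemokine gene Ccl2, the metallothionein gene Mt2, Dlk1, Dmkn, Atp1b1, the complement gene C3 and the mesothelial gene Msln, with log2 ratios from -1.49 to -1.24. Of 8 mesothelial genes 6 were lower, with summed levels of 343 and 585 CPM, and none was at 0. Of 7 measured fibroblast genes 3 were lower, with summed levels of 1791 and 2572 CPM.

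Of these 12 genes, Ccl2 and Atp1b1 alone stayed past 1.5-fold lower, at log2 ratios of -0.94 and -0.97, once 3 small groups of cells were left out. Clustering had set apart cluster 16, of 51 cells led by Col1a1, Dcn and C3 with all 8 mesothelial genes high, cluster 7, of 8 fibroblast-like cells, and cluster 17, of 8 cells led by airway genes. Cluster 16 gave 7 of the matched GFP-read and 21 of the matched GFP-unread cells, and cluster 17 gave 0 and 1. Without these clusters, 343 cells a group, the log2 ratio of Scgb3a2 was -0.04 and that of Msln was 0.16, and the mesothelial median was 0.00. Of the 12 lowest genes, 1 (Ccl2) was still among the 12 lowest, and 8 of the 12 highest were still among the 12 highest. Npr3 was then the lowest, at -1.13, and Lyz2, a gene of macrophages, was the highest, with 394 of its 487 GFP-read UMIs in 1 cell of the first draw. Higher genes then numbered 298 (2.87%) and lower genes 392 (3.77%), and the arterial median was 0.32.

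The reporter also differed among endothelial clusters, which were made without the reporter features and Hcn4. A cluster was named only from marker genes. GFP stood at 70.6 CPM (59.6 to 83) in cluster 0, at 69.2 CPM (58.1 to 81.8) in cluster 12 and at 54.6 CPM (45.2 to 65.4) in cluster 14, the 3 arterial endothelial-like clusters. Together they had 64.6 CPM (58.5 to 71.3) over 369 cells, against 38.4 CPM (36.3 to 40.7) over the other 2123. The capillary endothelial-like cluster 11 had 51.2 CPM (42.3 to 61.3), whose interval overlaps that of cluster 14. Cluster 11 gave 26 of the matched GFP-read and 17 of the matched GFP-unread cells. The lower capillary median above thus did not come with fewer cells of this cluster. Cluster 4, which a looser naming rule had called arterial-like, had 36.8 CPM (26.8 to 49.2). The lymphatic endothelial-like cluster 2 had 36.3 CPM, and the endocardial-like clusters 1 and 3 had 34.2 and 29.7 CPM. The lowest levels in clusters of over 50 cells were in cluster 10, at 19.5 CPM (12.6 to 28.7), and cluster 16, at 24.9 CPM (17.4 to 34.5).

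The shares of GFP-read cells moved with depth as well as with the cluster. Before thinning, 28.7% (24.2 to 33.6) of the arterial-like cells and 13.1% (11.7 to 14.6) of the others were GFP-read, at medians of 14277 and 11553 UMIs. After thinning, at least 2 GFP UMIs remained in 3.90% (2.15 to 6.46) of arterial-like and 1.87% (1.33 to 2.54) of other cells, and at least 1 in 26.7% (22.2 to 31.6) and 17.3% (15.7 to 19.0). The intervals for at least 2 UMIs overlap, and those for at least 1 do not. By cluster, at least 1 then remained in 24.5%, 29.0% and 26.4% of clusters 0, 12 and 14. It remained in 24.8% of the capillary endothelial-like cluster 11 and in 23.8% of cluster 6. At least 2 remained in 1.82%, 4.03% and 5.60% of clusters 0, 12 and 14, and in 3.76% of cluster 11. These thinned shares were thus not particular to the arterial-like clusters. The cycling cluster 13, with a median of 20303 UMIs, had 29.6% of its cells GFP-read, but after thinning 19.4% (13.1 to 27.1) held a GFP UMI. Hcn4 UMIs were spread in another way: clusters 6 and 15 held 14 and 11 of the 64, and the arterial-like clusters 0, 12 and 14 held 6, 2 and 2.

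**Figure D3:**
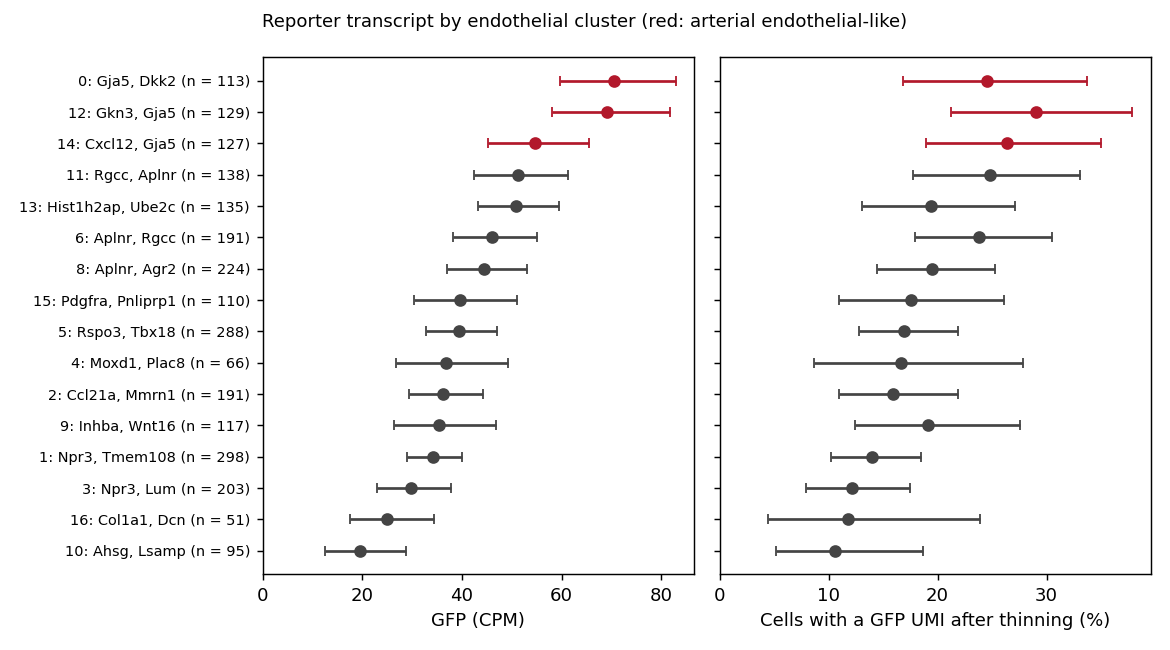
GFP level in CPM (left, x axis) and share of cells with a GFP UMI after thinning to 5000 UMIs (right, x axis, %) in the endothelial clusters of at least 50 cells (y axis, with 2 leading genes and the number of cells). Bars are exact 95% intervals and red marks arterial endothelial-like clusters, which hold the 3 highest GFP levels, from 54.6 to 70.6 CPM.

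The arterial difference was smaller once clusters were matched too. The clusters were made from the expression of these same cells, and the arterial-like ones were named with this list. Matching on cluster can therefore bring the groups closer in these genes by construction. With cells matched on total UMIs and cluster together, 266 a group, 157 genes (1.61%) were higher and 219 (2.25%) lower in GFP-read cells. The arterial median was then 0.11, with 1 of 18 genes past the fold, and the venous median was -0.00. Gkn3 remained past the fold, at 175 and 110 CPM, while Gja5 stood at 124 and 108 CPM and Eln at 16502 and 13319 CPM. Gkn3 was not confined to the arterial-like clusters. It stood at 267, 888 and 143 CPM in clusters 0, 12 and 14, at 203 CPM in the unnamed cluster 5 and at 183 CPM in the cycling cluster 13. Nppc had the highest ratio of the genes named by the same rule, at 56.3 and 15.3 CPM. Of the 12 highest genes, 2 (Gkn3 and Nppc) were again among the 12 highest, and of the 12 lowest, 2 (Msln and Dmkn) were again among the 12 lowest. Of the endocardial genes 1 was then past the fold higher and none lower, with a median of 0.02, and Npr3 and Tmem108 had log2 ratios of -0.34 and -0.14. Of 12 Notch pathway genes none was past the fold. Of 9 capillary genes 4 were then past the fold lower and 0 higher, with a median of -0.25. Among them Gpihbp1, Rgcc and Cd300lg had log2 ratios of -0.77, -1.02 and -0.87. Rgcc had a UMI in 19.5% of the cells of both groups. Its log2 ratio ran from -2.20 to 1.61 over 14 other selections of cells.

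Within the arterial-like clusters alone, with 73 cells a group, 176 genes (3.08%) were higher and 348 (6.08%) lower. The arterial median was -0.29, Gkn3 had a log2 ratio of 0.56 and Gja5 one of 0.13. In the remaining clusters without 7, 16 and 17, with 252 cells a group, 247 genes (2.55%) were higher and 232 (2.39%) lower. There the arterial median was 0.15, and Gkn3 and Gja5 had log2 ratios of 0.82 and 0.92. The list's higher median did not hold inside the arterial-like cells. Gkn3, Gja5, Eln and Cytl1 were above 0 in 14 of 14 other selections of cells, and Npr3 was below 0 in 14 of 14. These selections overlap and reuse cells of the same library, and the genes were named with their ratios known. The shared sign is therefore not independent support.

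**Figure D4:**
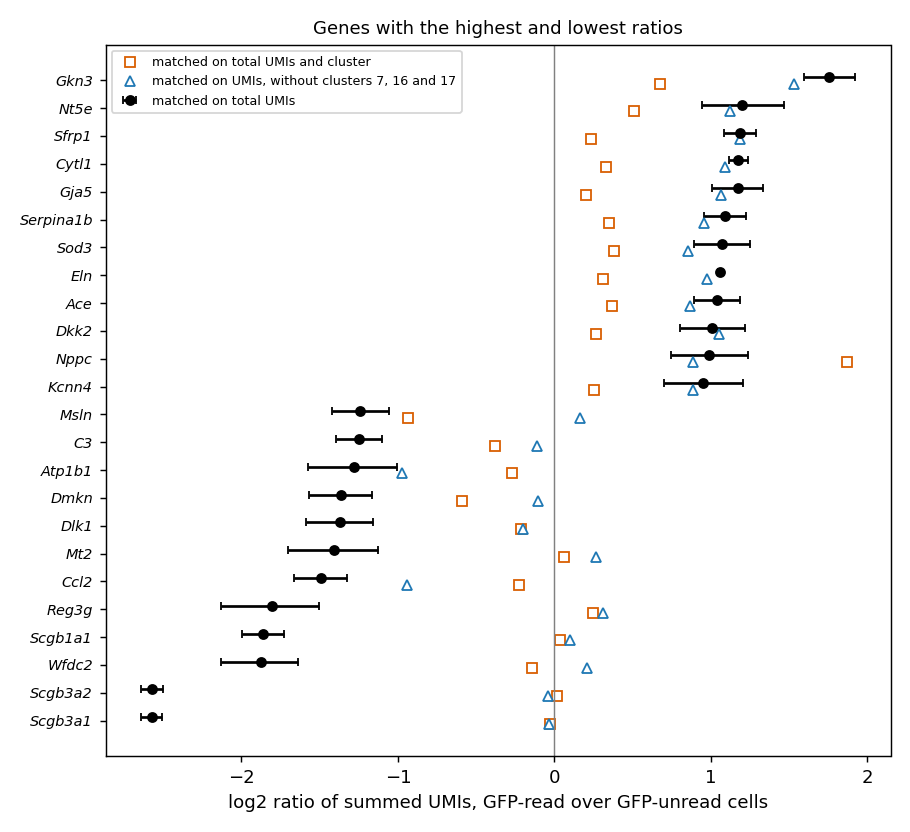
Log2 ratio of summed UMIs, GFP-read over GFP-unread cells (x axis), for the 12 genes with the highest and the 12 with the lowest ratios (y axis). Black points with exact 95% intervals are cells matched on total UMIs, orange squares cells matched on UMIs and cluster, and blue triangles cells matched on UMIs without clusters 7, 16 and 17. The airway genes at the bottom move to near 0 without those clusters, while Gkn3 stays above 0 in all 3.

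Levels were also read across the GFP count itself, in 56 cells a class drawn to the same depth, with medians of 22000 to 22350 UMIs. Eln stood at 10075, 12552, 15024 and 23881 CPM in cells with 0, 1, 2 to 3 and 4 or more GFP UMIs. Gkn3 stood at 79.8, 123, 168 and 215 CPM, and Cytl1 at 392, 552, 654 and 1150 CPM. These 3 genes were higher at each step, and only the Gkn3 intervals of the last 2 classes, 146 to 191 and 191 to 242 CPM, meet. Gja5 was not, at 90.4, 120, 111 and 217 CPM, and its intervals overlap except in the highest class. The arterial list summed to 2933, 2906, 3020 and 4882 CPM, with an interval apart from the others in the highest class alone. Fbln5 gave much of each sum, at 952, 1074, 1183 and 1894 CPM, and was itself higher at each step. The classes were drawn once, and how far another draw moves these levels was not tested. With GFP-read set at 4 or more UMIs, the arterial list's median log2 ratio was smaller than in the main comparison. Nrp1 stood at 488, 313, 314 and 384 CPM, lower in the last class than in the first but lowest in the middle classes. Efnb2, Dll4 and Cxcr4 had overlapping intervals in the first and last classes, with Cxcr4 at 13 and 12 UMIs. Npr3 stood at 117, 111, 95.3 and 34.2 CPM and Tmem108 at 136, 135, 143 and 40.3 CPM, both with their low value in the highest class. Hcn4 had 2, 1, 1 and 5 UMIs in the 4 classes. The classes of 2 to 3 and of 4 or more contain cells of the GFP-read group, so they are not independent of the comparison above.

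**Figure D5:**
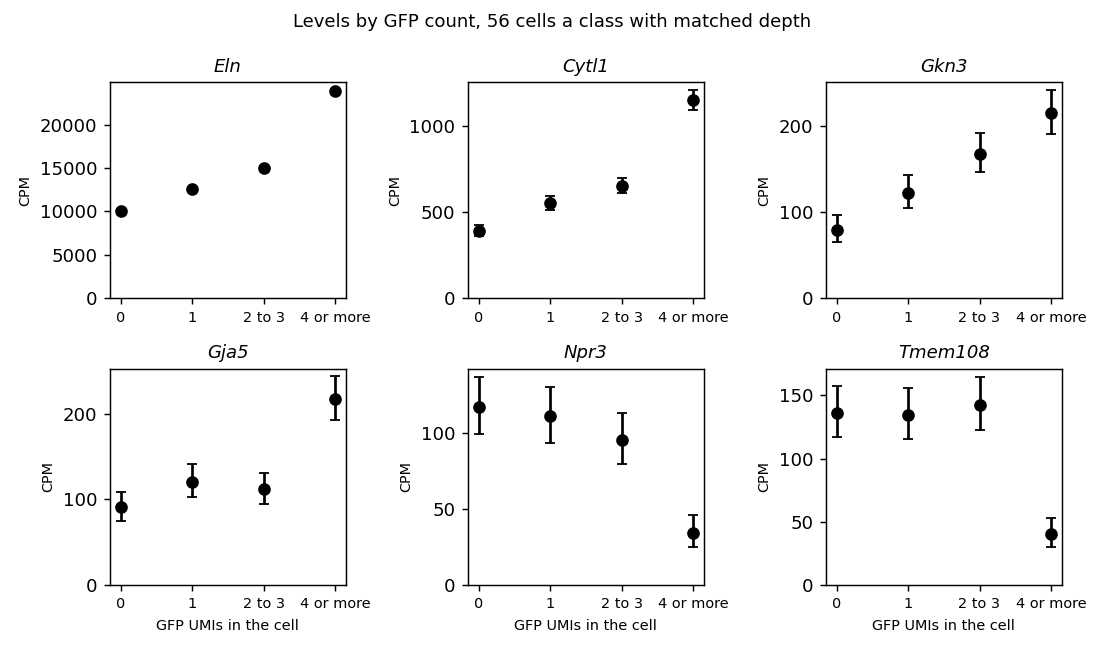
CPM (y axis, from 0) of 6 genes by the number of GFP UMIs in the cell (x axis), with 56 cells a class matched on depth. Points are summed levels and bars exact 95% Poisson intervals. Eln, Cytl1 and Gkn3 step up with each class, and Npr3 and Tmem108 are low in the class of 4 or more.

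Both groups of the sorted library stood apart from the endothelial cells of the other libraries for the leading genes. Gkn3 had 0 UMIs in the 189 endothelial cells of the GFP-negative library, for which the exact interval reaches 1.60 CPM, and 0.601 CPM (0.0728 to 2.17) in RA. Eln stood at 1332 and 338 CPM in those libraries, Gja5 at 3.04 and 3.0 CPM, and Cytl1 at 51.7 and 50.8 CPM, each below the level in GFP-unread cells. Gpihbp1 was higher there, at 625 and 408 CPM. Sox17, at 95.9 and 94.6 CPM, lay between the GFP-unread and the GFP-read level. Each library was prepared once, so the sort and the library cannot be told apart.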

How the data were processed

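The authors deposited raw UMI counts per feature and barcode for 3 libraries. Each matrix held 28001 features, of which 27998 were gene IDs and 3 were added reporter features. Cell Ranger and build mm9 are named in the submitters' processing notes, with no version. How intronic or multiply mapped reads were counted is not given in the sources used here.

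For each group, a gene's UMIs were added up across cells and divided by the group's total to give CPM. Analyses used Python 3.11.15, numpy 2.4.6, scipy 1.17.1 and scanpy 1.11.5. CPM carry exact Poisson intervals, ratios exact conditional binomial intervals and shares Clopper-Pearson intervals. Cells were matched with seed 1. Clusters used 2000 variable genes, 30 components, 15 neighbours and Leiden resolution 1. The ratio calculation was run on simulated group sums, drawn without differences between cells. Of 200 changed genes 100% were past 1.5-fold, and so were 1.81% of 10437 unchanged genes. Such sums cannot show how far single cells move a ratio.

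The genes named are the 12 highest and 12 lowest ratios among genes that reached 50 CPM in a group and were detected in 10% or more of the higher group's cells, without the reporter features and the 7 genes that define the cells, and members of 24 lists. Of 239 list genes, 2 were not found under 1 ID (Vegfd and Ccl21a). The values of 1 list gene are not reported here. The members and lists were chosen with earlier results of these data known. Other choices followed the values: the cluster naming rule was made stricter after a first set of names, which had called cluster 4 arterial-like, clusters 5, 6 and 8 venous-like, cluster 9 endocardial-like, clusters 10 and 15 fibroblast-like and cluster 16 mesothelial-like, and the exclusion of clusters 7, 16 and 17, the comparisons inside and outside the arterial-like clusters, the cells with an Hcn4 UMI, the top-cell shares, and the promoters and motifs were added. Genes named only under another selection, such as Lyz2, were singled out after their values were seen.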

Additional observations from a re-analysis of the deposited data

How the results depend on the processing

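No paired analysis was possible because both groups of cells come from 1 library, with no replicates. For the same reason no replicate was left out. Counts and list medians were recomputed in 14 other selections of cells, 3 of them chosen after seeing the data, and under 4 changes of threshold or scaling for counts and 2 for lists, with 3 more for shares by cluster and 1 for the share by gate. A count stayed if within 1.5 times, and a list median if inside the median counting interval of its members. By these bounds 255 values stayed, 73 moved and 23 reversed, where only a list whose interval leaves out 0 is counted as reversed. Whatever the interval, 49 of 311 list medians had the other sign. The cause of each change was not tested.

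Genes higher and lower numbered 285 and 473. They became 1649 and 1448 in cells thinned to 5000 UMIs (53 GFP-read and 1993 GFP-unread cells), 157 and 219 matched on cluster too, 132 and 137 without cells that held 2 UMIs of other cell types (28 a group), 652 and 1188 for genes measured from 10 UMIs, 1968 and 2880 from 1 UMI, and 881 and 1435 at a ratio of 5 to 4. Higher genes alone moved to 454 without matching, 183 with GFP-read set at 1 UMI and 176 in arterial-like clusters, and lower genes to 232 outside them.

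The arterial median of 0.40 moved to 0.67 without matching, 0.11 matched on cluster, 0.21 with at least 4 GFP UMIs (59 a group), 1.251 without cells holding other types' UMIs and 0.15 outside arterial-like clusters, and reversed to -0.29 inside them. The capillary median of -0.50 moved to -0.061 with another seed, -0.011 without matching, -0.043 at 1 GFP UMI and -0.13 outside arterial-like clusters, and reversed to 0.29 thinned and 0.28 at 4 GFP UMIs. The venous median of 0.37 moved to 0.12 without matching, 0.088 at 4 GFP UMIs and 0.57 in arterial-like clusters, and reversed to -0.35 thinned, -0.0031 matched on cluster and -0.23 without cells holding other types' UMIs. The general endothelial median of 0.13 moved to 0.0024 matched on cluster, 0.042 without clusters 7, 16 and 17 and 0.027 outside arterial-like clusters, and reversed to -0.029 inside them. The endocardial median of -0.18 moved to -0.57 at 4 GFP UMIs and to 0.22 inside and 0.14 outside arterial-like clusters, and the lymphatic median of -0.22 to 0.16 matched on cluster.

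Other lists reversed too. The mesothelial median became 0.063 without matching, 0.079 with Pecam1 and Cdh5 at 8 UMIs, 0.0028 without clusters 7, 16 and 17 and 0.15 outside arterial-like clusters. The fibroblast median became 0.50 inside and 0.074 outside them, and the progenitor median -0.21 inside. Immediate early genes became 0.010 without matching, 0.021 thinned, 0.035 matched on cluster, 0.043 at 1 GFP UMI, 0.054 with Pecam1 and Cdh5 at 8 UMIs, 0.031 without clusters 7, 16 and 17 and 0.021 outside arterial-like clusters. Nuclear retained genes became -0.16 thinned and -0.030 matched on cluster. The share of sorted endothelial cells with a GFP UMI was 18.7% thinned and 38.7% unthinned. With at most 7 GFP UMIs a cell, the depth limits which cells are called GFP-read.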
